A study of Mus musculus with 6 samples.

Results

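The mitochondrial ribosomal protein genes (Mrp genes) encode the proteins of the ribosome that works inside mitochondria. Protein-coding genes whose symbol is Mrpl or Mrps followed by a number, with or without a closing letter, were taken as members, which gave 78 of the 27179 genes in the count table. Of these, 51 encode proteins of the large subunit and 26 proteins of the small subunit, and 1, Mrps36, carries the family name but encodes a component of the 2-oxoglutarate dehydrogenase complex. Expression was measured by bulk RNA sequencing in cancer-associated fibroblasts (CAFs) of 3 mammary tumors. The tumors came from female mice heterozygous for the Pdgfra H2B-GFP reporter (C57BL/6), a nuclear green fluorescent protein under the Pdgfra locus, crossed with MMTV-Wnt1 mice (FVB/NJ), in which the mammary tumor virus promoter drives Wnt1 in the mammary epithelium. Both groups therefore carried the reporter and the oncogene, and no group came from a normal gland. Ages were not given in the sources used here. From each tumor, GFP+ cells negative for CD31, CD45 and TER-119 were sorted into a CD34 negative and a CD34 positive fraction, so that a tumor gave 1 library to each group (n = 3 per group), called negative or positive library 1, 2 or 3 after the tumor.

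Mitochondrial DNA encodes a small set of respiratory chain proteins, the ribosomal RNAs and the transfer RNAs needed to make them. All proteins of the mitochondrial ribosome are encoded in the nucleus, made in the cytosol and imported, and some descend from bacterial ribosomal proteins while others have no bacterial counterpart. Cells with much oxidative phosphorylation, and cells that grow and divide, are known for a high output of this ribosome. Transcription factors known to act on many of its genes are NRF1, the ETS factor GABP and YY1.

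The promoters are shown first because the genes lie scattered over 17 chromosomes, 11 of them on chromosome 11. Some short promoter elements were more frequent among them than among protein-coding genes, though none of those searched was in every member. Sequences are 5′ to 3′ on the strand of the gene, from the RefSeq promoter table of build GRCm38.p6, which held a promoter (250 bases before to 50 bases after a start) for 69 of 78 members. Those not matched were Mrpl4, Mrpl13, Mrpl15, Mrpl19, Mrpl38, Mrpl54, Mrps28, Mrps34 and Mrps35. Capitals mark matches, on either strand, to the ETS core CCGGAAG, the NRF1 core GCGCATGCG or the GC box GGGCGG bound by SP1. Shown are the members called lower with the tumor in the model (Mrpl33, Mrpl23). Next come those with the next most negative differences of 1 sign in all tumors (Mrps18c and, at the second of its starts in the table, Mrps16). Then follow a member with a positive difference in each tumor (Mrpl10) and 1 with both an ETS and an NRF1 match (Mrpl22). Last is the gap between a pair of members that are transcribed away from each other (Mrps11 and Mrpl46). The starts used for Mrpl23 and Mrpl22 lie inside the gene spans, which begin at 142532467 and 58170043. Their windows are therefore not sequence before the first base of the gene.
Mrpl33, chr5:31613851-31613954, plus strand: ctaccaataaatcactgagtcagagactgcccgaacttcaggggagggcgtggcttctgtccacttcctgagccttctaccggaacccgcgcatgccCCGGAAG
Mrpl23, chr7:142532902-142533031, plus strand: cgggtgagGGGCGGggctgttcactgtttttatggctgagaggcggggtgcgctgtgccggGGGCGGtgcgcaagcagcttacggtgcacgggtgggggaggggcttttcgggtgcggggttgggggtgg
Mrps18c, chr5:100798589-100798689, plus strand: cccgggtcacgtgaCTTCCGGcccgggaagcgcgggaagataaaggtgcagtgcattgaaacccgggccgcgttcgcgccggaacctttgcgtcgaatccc
Mrps16, chr14:20393635-20393734, minus strand: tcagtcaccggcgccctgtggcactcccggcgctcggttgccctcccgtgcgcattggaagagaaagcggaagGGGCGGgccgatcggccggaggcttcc
Mrpl10, chr11:97041437-97041512, plus strand: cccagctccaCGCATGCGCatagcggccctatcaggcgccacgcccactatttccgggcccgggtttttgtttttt
Mrpl22, chr11:58171594-58171663, plus strand: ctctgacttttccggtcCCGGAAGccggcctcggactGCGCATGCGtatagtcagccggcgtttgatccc
Mrps11 and Mrpl46, chr7:78783090-78783130, plus strand of Mrps11: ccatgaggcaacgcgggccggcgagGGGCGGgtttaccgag

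The ETS match of Mrpl33 begins 3 bases before its start and runs across it. The window shown for Mrpl23, inside its gene span, holds GC boxes and no ETS or NRF1 core. The ETS core CCGGAAG was found for 26 of the 69 members with a promoter (37.7%), against 13.3% of the 16772 protein-coding genes with one, a gene being counted where any of its promoters matched. The YY1 core AAGATGGC was found in 12 (17.4%, against 3.64%) and the NRF1 core in 7 (10.1%, against 2.71%). At least 1 of these 3 cores was found for 38 members (55.1%), against 18.1% of protein-coding genes. The other letters searched had shares near or below those of protein-coding genes, namely the E-box CACGTG (7.25%, against 9.18%), the GC box (49.3%, against 50.7%), CCAAT (39.1%, against 42.5%) and TATAAA (7.25%, against 14.6%). The cores searched do not contain each other, and a match is a description of the letters, not a bound site. A neighbour that starts within 1000 bases and is transcribed away from the member was present for 26 of the 69 (37.7%), against 13.5% of protein-coding genes with a promoter. Mrps11 and Mrpl46 form such a pair with each other, their starts 42 bases apart. Tested members with the ETS core had a median log2 fold change of -0.40 (26 genes). Those with a promoter that lacked it had -0.26 (42 genes). The GC box, with a share like that of protein-coding genes, gave -0.40 with and -0.28 without it (34 genes each), and CCAAT -0.31 and -0.28. The other letters went the other way. With and without a match, the medians were -0.26 and -0.31 for NRF1, -0.21 and -0.31 for YY1, -0.15 and -0.31 for the E-box, and -0.24 and -0.31 for TATAAA. These medians are descriptions, and no split was tested.

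The libraries held between 16238059 (positive library 1) and 86609267 counts (positive library 2), and their composition factors lay between 0.942 and 1.04. Negative library 3 stood apart, with counts for 14314 genes against 16253 to 19220 in the others. Cd34 itself followed the sort, at 42.0 to 102 CPM (counts scaled to library size) in the negative and 562 to 1605 in the positive libraries (log2 fold change -3.63, limma-voom adjusted p = 0.0414). Of 5 fibroblast markers, at high levels in every library (a sum of 24064 to 37047 CPM in the negative and 25187 to 33415 in the positive libraries), 4 had a log2 fold change below 0 (median -0.79), and Dcn and Lum were called lower in CD34 negative CAFs with the tumor as a block (limma-voom adjusted p = 0.00154 and 0.0140). Markers of other cells were not level between the groups either. All 14 genes of a cell-cycle list had a log2 fold change below 0, and 8 were called lower with the block, against 4.25% of all genes. Their summed level was 24.8 to 101 CPM in the negative and 75.1 to 412 in the positive libraries. Both pericyte markers, Rgs5 and Mcam, were higher in the negative libraries (1 called with the block), with a sum of 41.7 to 46.7 CPM against 4.41 to 17.5. All 5 epithelial markers had a log2 fold change above 0 (sum of 48.2 to 131 CPM in the negative and 17.0 to 127 in the positive libraries), with 0 called. The keratinocyte markers summed to 1.08 to 3.62 CPM against 7.01 to 11.3 (Krtdap called lower with the block) and the muscle markers to 2.80 to 13.7 CPM against 1.5 to 1.85 (Des called higher with the block, Myf5 at 0 in all libraries). Sums of Schwann cell markers were 13.9 to 22.7 CPM against 7.50 to 12.01, of macrophage markers 13.3 to 16.3 against 8.93 to 16.3, of endothelial markers 1.53 to 9.63 against 2.21 to 13.1 and of lymphocyte markers, with Nkg7 at 0, 1.66 to 2.99 against 1.66 to 6.52. The part of any of these in the Mrp values was not tested. In RNA from sorted pools, fewer cells of a kind and less RNA per cell cannot be told apart. Libraries of different tumors are biological replicates of their fraction.

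Of the 78 members, 77 passed the low-count filter and were tested among 14855 genes. Together the members made up 0.0816% to 0.131% of each library, and their median count was 183 to 1169. Compared per length, as RPKM (CPM divided by the counted gene length in kilobases), their median level was 10.6, against 5.44 over all genes tested. The member with the highest level per length was Mrpl33, a large subunit protein of bacterial descent, at a mean of 93.5 RPKM over the 6 libraries, followed by Mrpl52 (76.3 RPKM), Mrps21 (56.0 RPKM) and Mrpl13 (48.6 RPKM). At the other end were Mrpl44 (2.59 RPKM), Mrps25 (2.36 RPKM), Mrpl19 (1.52 RPKM) and Mrpl1 (1.24 RPKM), the last the protein of the flexible stalk beside the exit of spent transfer RNA. Levels per length thus ranged widely within a particle whose proteins are assembled together, and the counted lengths ranged from 407 to 6712 bases. In the order named, the 4 highest had counted lengths of 466, 412, 407 and 786 bases and the 4 lowest 1424, 6076, 5016 and 4170. The part of the counted length in this ranking was not tested.

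**Figure D1:**
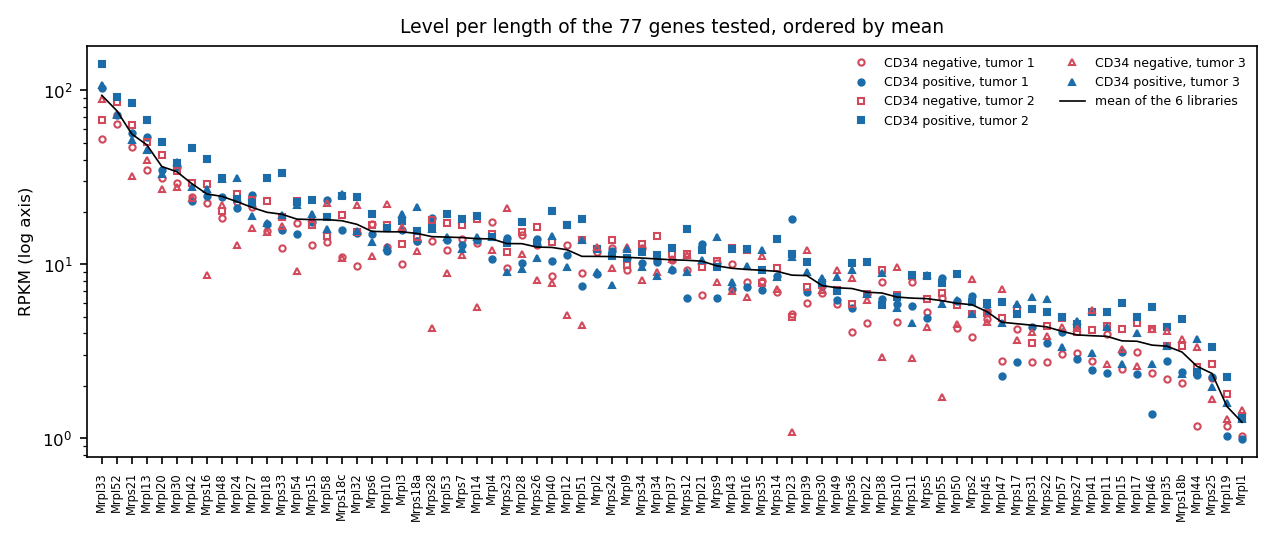
Level per length (RPKM, log axis) of the 77 Mrp genes tested in each of the 6 libraries, ordered by the mean, with open red symbols for CD34 negative, filled blue symbols for CD34 positive libraries and a shape for each tumor. Means run from 93.5 RPKM (Mrpl33) to 1.24 RPKM (Mrpl1), and Mrpl23 has its lowest value in negative library 3.

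Mrpl36, a very small protein of the large subunit of bacterial descent, was the 1 member that failed the filter. It had 4 counts in negative library 1 and 2 counts in positive library 1. The other 4 libraries held none, which allows up to 3 counts, or 0.0346 to 0.110 CPM by library. No fold change is given for it.

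The question of the comparison is how the fractions without and with CD34 differ. The Mrp genes as a whole lay lower in CD34 negative CAFs. Summed over all 78 members, the level was 816, 1107 and 943 CPM in negative libraries 1, 2 and 3, and 958, 1312 and 1111 CPM in positive libraries 1, 2 and 3 (scaled by library total). In each tumor the negative library was below its positive partner, by 14.8% in tumor 1, 15.7% in tumor 2 and 15.1% in tumor 3. The groups overlapped, because negative library 2 lay above positive library 1. Both libraries of tumor 2 were the highest of their group. With TMM scaling, a composition correction by trimmed means, the same differences were -9.95%, -17.4% and -14.1%. The difference was -15.7%, -15.7% and -14.7% for the large subunit and -12.5%, -15.1% and -16.2% for the small subunit.

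**Figure D2:**
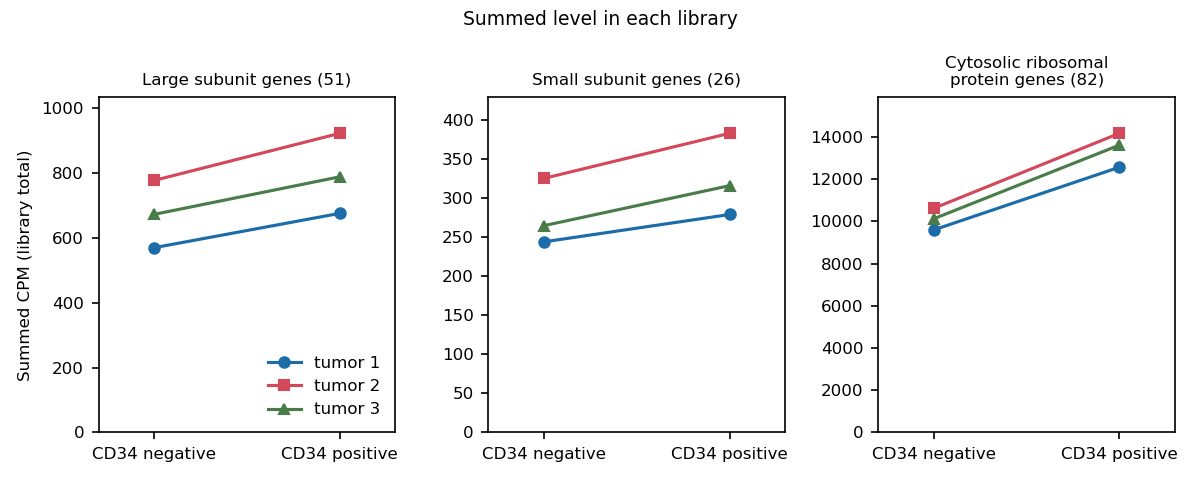
Summed CPM, scaled by library total, of the 51 large subunit genes, the 26 small subunit genes and the 82 cytosolic ribosomal protein genes; each line joins the CD34 negative and CD34 positive library of 1 tumor and the axes start at 0. Every line is higher at its CD34 positive end, and tumor 2 is highest in both Mrp panels.

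Gene by gene, no member passed the test without a tumor term. With limma-voom, 0 of 77 members had an adjusted p under 0.05, while 0.121% of all genes tested did. At an unadjusted p under 0.05, 7 members (9.09%) were lower in CD34 negative CAFs and 0 higher, beside 7.10% of all genes in the lower direction. Without a tumor term, 0 members were called by DESeq2, which called 4.70% of all genes, and 0 by edgeR, which called 0.0606%.

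The 2 fractions of a tumor are paired by origin, and with the tumor as a block in limma-voom 2 members were called, Mrpl33 and Mrpl23, both lower in CD34 negative CAFs. This is 2.60% of the members, below the 4.25% of all genes called lower in that fit. No member was called higher, against 4.32% of all genes. Other blocked fits gave shares near or below their background as well. DESeq2 called 2 members lower (6.02% of all genes), edgeR 0 (2.11%), limma-voom with a length trend removed 0 (3.96%) and with a GC trend removed 1 (3.56%). Without tumor 1 the blocked limma-voom fit called 0 members lower (3.51% of all genes), also 0 without tumor 2 (2.92%), and 3 without tumor 3 (7.32%).

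Where the members differed from the background was in direction. A log2 fold change below 0 was seen in 67 of 77 members (87.0%), against 52.3% of all genes tested. Mrpl1 (-0.03) counts among the 67, yet it was higher in the negative library in 3 of 3 tumors. Lower values in the negative library of 3 of 3 tumors were seen in 28 members (36.4%), against 23.4% of all genes, and higher values in 3 of 3 tumors in 4 members (5.19%), against 22.8%. The median log2 fold change of the members was -0.31, with quartiles of -0.49 and -0.12, against -0.03 over all genes. The within-tumor medians were -0.14, -0.22 and -0.22. All negative libraries lay below all positive ones in 8 members (10.4%), against 10.0% of all genes, a share near the background. All negative libraries lay above all positive ones in 0 members, against 10.4% of all genes.

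The size of the median rested on the fit and on 1 library. With the tumor as a block it was -0.18, with 60 of 77 members below 0. With the block and a length trend removed it was -0.12, with 54 below 0. Without positive library 2 it was -0.09, with 47 of 77 members below 0. Fits by edgeR, DESeq2 and limma-trend gave -0.15, -0.16 and -0.17, each with 59 of 77 members below 0.

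**Figure D3:**
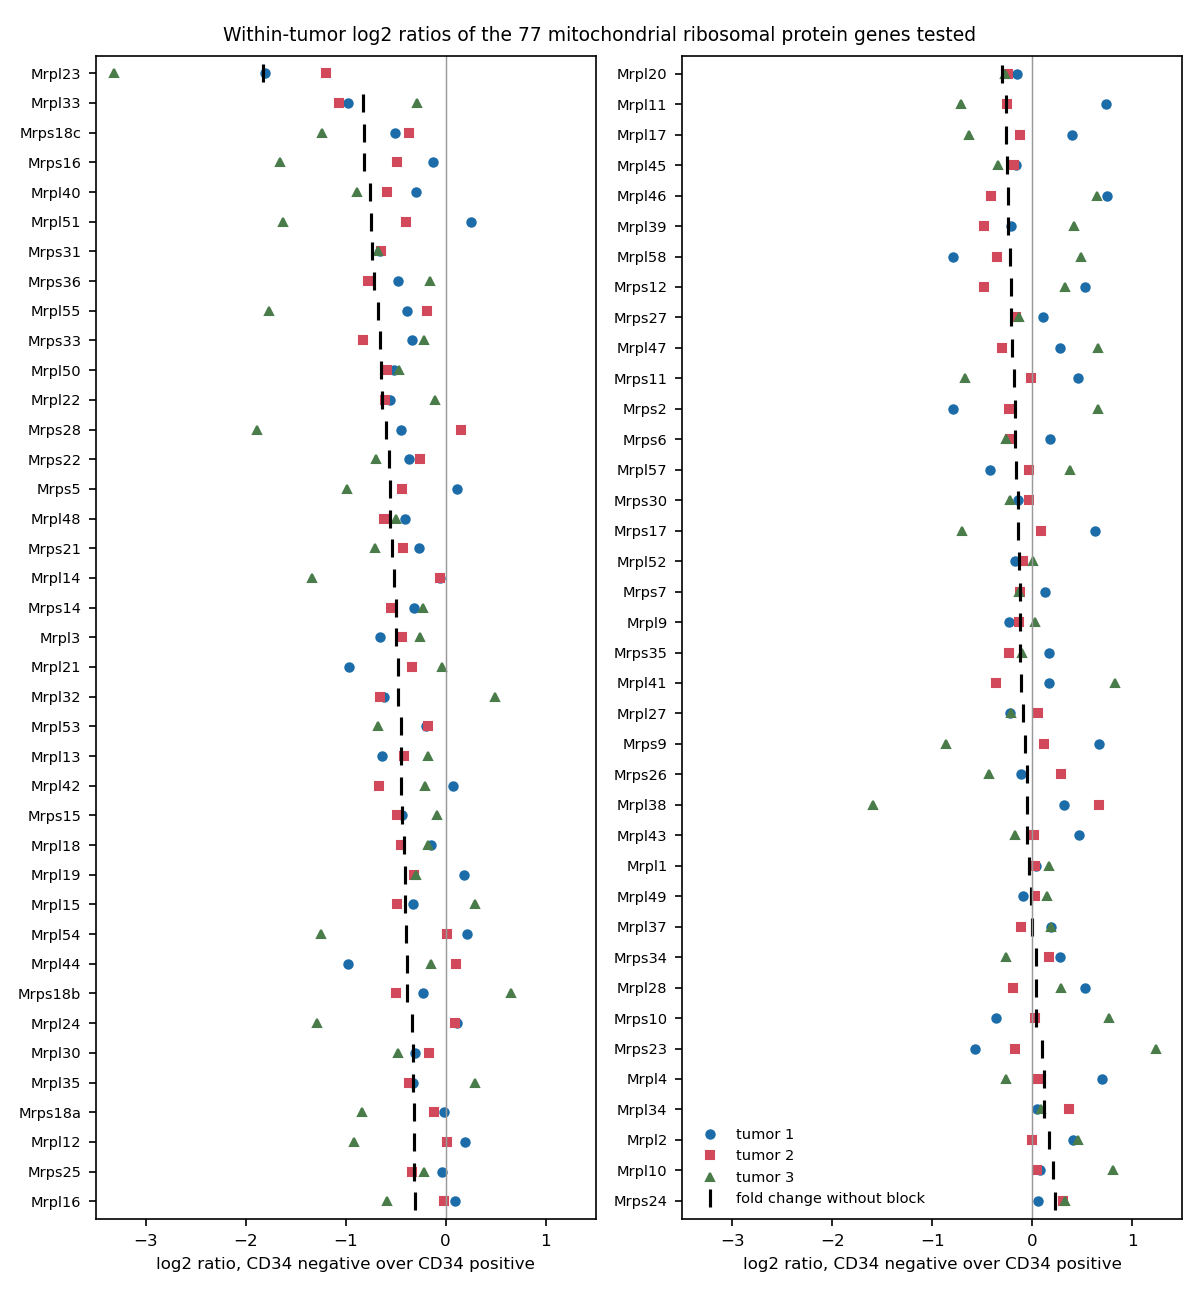
Log2 ratio of the CD34 negative over the CD34 positive library within each tumor (coloured symbols, TMM-scaled) and log2 fold change of the fit without a block (black bars) for the 77 Mrp genes tested, ordered by fold change. Of the black bars, 67 lie below 0, and the green symbols of tumor 3 scatter most, from Mrpl23 at -3.32 to Mrps23 at 1.24.

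Mrpl33 (gene ID 66845, chr5:31613951-31622644, plus strand, GRCm38.p6) had 24.5, 31.4 and 41.4 CPM in negative libraries 1, 2 and 3, and 48.2, 65.8 and 50.3 CPM in the positive ones. CPM of single genes are TMM-scaled throughout. The groups did not overlap, and negative library 3 came closest to its partner. The means were 32.4 ± 8.5 CPM (SD, n = 3) without and 54.8 ± 9.64 CPM with CD34. The log2 fold change was -0.83 (SE 0.24) with a limma-voom adjusted p of 0.178, and -0.78 (SE 0.19) with an adjusted p of 0.0324 with the tumor as a block. The blocked DESeq2 fit made the same call (-0.79, adjusted p = 0.0107). The blocked edgeR fit did not, at nearly the same size (-0.78, adjusted p = 0.0849). In the blocked limma-voom fit the call was lost when a trend on gene length (-0.52, adjusted p = 0.134) or on GC content (-0.68, adjusted p = 0.0655) was removed. It was also lost in the blocked limma-voom fit without tumor 1 (-0.72, adjusted p = 0.0539) or tumor 2 (-0.60, adjusted p = 0.264), and made without tumor 3 (-1.04, adjusted p = 0.00147). The long noncoding RNA gene Gm38424 overlaps the whole span of Mrpl33 (8694 bases with introns, counted length 466). It had 261 counts over the 6 libraries against 12123 for Mrpl33.

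Mrpl23 (gene ID 19935, chr7:142532467-142540747, plus strand), whose bacterial relative lines the tunnel by which the new protein leaves the ribosome, had the largest difference. Its values were 3.03, 2.90 and 0.633 CPM in negative libraries 1, 2 and 3, and 10.6, 6.67 and 6.42 CPM in positive libraries 1, 2 and 3. The groups did not overlap, and negative library 3, with 23 counts, was the lowest by a wide margin. The log2 fold change was -1.83 (SE 0.57, limma-voom adjusted p = 0.207), and -1.76 (SE 0.46, adjusted p = 0.0478) with the tumor as a block. The blocked DESeq2 fit called it as well (-2.09, adjusted p = 0.00222), and the blocked edgeR fit did not (-2.07, adjusted p = 0.0918). The blocked limma-voom fit gave -1.68 (adjusted p = 0.329) without tumor 1, -2.12 (0.106) without tumor 2 and -1.49 (0.0108) without tumor 3. Removing a trend on length gave -1.57 (adjusted p = 0.0821) and removing one on GC content -1.91 (adjusted p = 0.0489), both with the limma-voom block. Without negative library 3, the log2 fold change was -1.27 in the fit without a block.

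After these, the most negative differences among members averaging 3 or more in log2 CPM, and with 1 sign in all tumors, were in Mrps18c, Mrps16, Mrpl40, Mrps33 and Mrpl50, none of which passed the test. Mrps18c, a small subunit member of a family of 3 related genes, had 5.56, 9.59 and 5.42 CPM in the negative and 7.86, 12.4 and 12.8 CPM in the positive libraries (log2 fold change -0.82, SE 0.33, limma-voom adjusted p = 0.316). Negative library 2 lay above positive library 1, so that the groups overlapped. Mrps16, a small subunit protein of bacterial descent, had 12.8, 16.3 and 4.90 CPM against 13.9, 22.7 and 15.4 CPM (-0.81, SE 0.42, adjusted p = 0.424), with negative library 3 far below the rest. Mrpl40 had 9.04, 14.2 and 8.28 CPM in the negative libraries and 11.1, 21.2 and 15.3 CPM in the positive ones (-0.76, SE 0.32, adjusted p = 0.335). Tumor 2 gave the highest value of each group. Mrps33 had 13.2, 19.8 and 17.5 CPM against 16.7, 35.3 and 20.4 CPM (-0.66, SE 0.32, adjusted p = 0.392), and here positive library 2 stood well above the others. In the blocked fit without tumor 3, Mrps33 was called as well (-0.69, adjusted p = 0.0360). Mrpl50 had 8.99, 12.3 and 9.49 CPM against 12.9, 18.5 and 13.1 CPM (-0.64, SE 0.27, adjusted p = 0.327) without overlap between the groups. Mrpl40, Mrps33 and Mrpl50 belong to the proteins without a bacterial counterpart.

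Only Mrps24 and Mrpl10 met the same rule in the other direction, and neither passed the test. Mrps24, a small subunit protein of bacterial descent, had 12.5, 14.0 and 9.60 CPM in the negative and 11.9, 11.3 and 7.66 CPM in the positive libraries (0.23, SE 0.27, limma-voom adjusted p = 0.748). Mrpl10, which anchors the stalk that recruits translation factors, had 21.2, 28.2 and 37.1 CPM against 20.1, 27.4 and 21.2 CPM (0.21, SE 0.26, adjusted p = 0.752). Tumors 1 and 2 were nearly level for Mrpl10, and the difference lay in negative library 3; without tumor 3 its log2 fold change was -0.03.

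**Figure D4:**
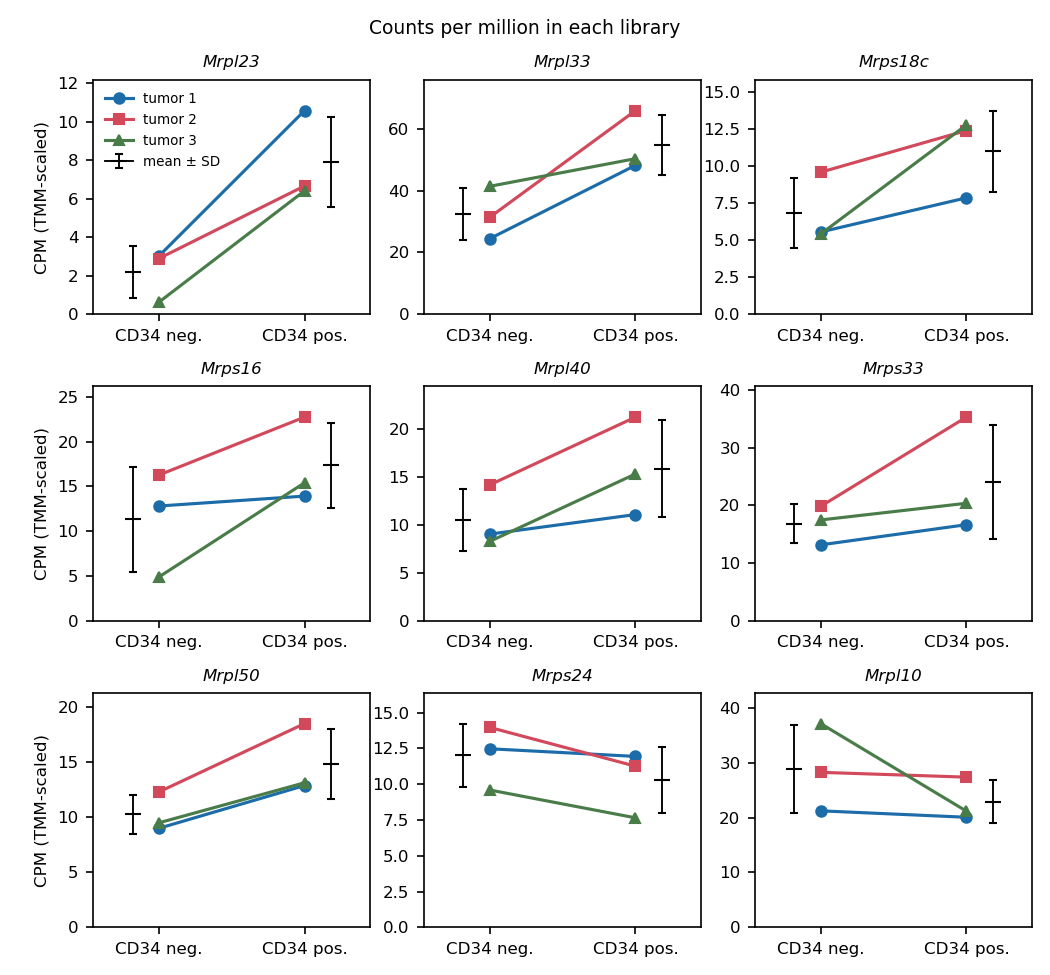
TMM-scaled CPM of 9 Mrp genes in each library, with a line for each tumor and black bars for the mean ± SD of each group (n = 3); all axes start at 0. Mrpl23, Mrpl33 and Mrpl50 show no overlap between the groups, and Mrpl10 differs mainly in tumor 3.

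The large subunit (50 tested members) had a median log2 fold change of -0.31, with 44 members below 0, and the small subunit (26) a median of -0.21, with 22 below 0. With the tumor as a block these medians were -0.19 and -0.13. The 45 tested members with a bacterial homolog had a median of -0.31 and the 31 mitochondria-specific ones -0.24, so neither division set one class of proteins apart by more than the spread of its quartiles. The direction was thus found on both sides of the particle.

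Members with special roles did not pass the test. In the S18 family, the small subunit genes Mrps18b and Mrps18c had log2 fold changes of -0.39 (SE 0.48) and -0.82 (SE 0.33), and Mrps18a, which despite its name belongs to the large subunit, -0.32 (SE 0.24). Mrps30, also a large subunit protein, was nearly level over the libraries, with 10.9, 12.2 and 11.3 CPM in the negative and 11.9, 12.5 and 13.2 CPM in the positive libraries (-0.14, SE 0.22). Mrpl12, the stalk protein also described as a partner of the mitochondrial RNA polymerase, had 12.3, 16.1 and 4.87 CPM against 10.7, 15.9 and 9.17 CPM (-0.31, SE 0.44). Only negative library 3 departed from the others for Mrpl12, and without that library the value was 0.13 and without positive library 2 it was 0.08. Mrpl58, a peptidyl-tRNA hydrolase built into the large subunit, had 9.90, 10.7 and 16.4 CPM against 17.1, 13.7 and 11.7 CPM (-0.22, SE 0.27), with tumors 1 and 3 pointing opposite ways. Mrpl44, a relative of RNase III, had -0.39 (SE 0.49) and Mrpl41 -0.11 (SE 0.38), with 0.06 for Mrpl41 under the tumor block. Among the most and least abundant per length, Mrpl52, Mrps21, Mrpl13, Mrps25, Mrpl19 and Mrpl1 had log2 fold changes of -0.13, -0.54, -0.45, -0.31, -0.41 and -0.03. For these members the limma-voom adjusted p lay between 0.316 and 0.974. Mrps36, the dehydrogenase component, had 2.90, 4.25 and 6.0 CPM against 4.02, 7.32 and 6.67 CPM (-0.72, SE 0.39, adjusted p = 0.449).

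Negative library 3 stood apart in both directions in some members, of which the following were chosen after their values were seen. Mrps28 had 9.79, 13.0 and 3.11 CPM in negative libraries 1, 2 and 3, and 11.5 to 13.3 CPM in the positive ones. Mrpl38 had 11.1, 13.0 and 4.15 CPM against 8.22 to 12.5 CPM. In the other direction, Mrps23 had 12.4, 15.4 and 27.6 CPM against 11.7 to 18.4 CPM. The part of this library's quality in the differences was not tested. Across the 77 members, the departure of negative library 3 from the mean of the other negative libraries had a Pearson r of -0.33 and a Spearman rho of -0.31 with the GC content of the transcript, and the log2 fold change an r of 0.25 and a rho of 0.28 with log2 length. Genes are not independent replicates and all points share the same libraries, so no p is given. Median GC content was 49.7% for members and 49.8% for all genes with a value, while the median counted length was 1055 bases for members and 2760 for all genes tested.

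Other genes of mitochondrial protein synthesis were read out of the same fit, with no test of a list. The 5 subunits named otherwise, Chchd1, Gadd45gip1, Aurkaip1, Dap3 and Ptcd3, had log2 fold changes from -0.38 (Chchd1) to -0.08 (Dap3), and 0 were called. Of 24 assembly factors, 15 were below 0 (median -0.14). With the block 1 of the 24 was called lower, a share near the 4.25% of all genes. It was Mterf4, which guides a ribosomal RNA methyltransferase. Mterf4 had 40.0, 68.4 and 86.0 CPM in the negative and 67.4, 154 and 337 CPM in the positive libraries, lower in each tumor (-1.36, SE 0.21, blocked limma-voom adjusted p = 0.00518; 0.326 without the block). Of 16 translation factors, 14 were below 0 (median -0.32) and 0 were called. Of 19 aminoacyl-tRNA synthetases, 13 were below 0 (median -0.16) and 0 were called.

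Transcription and replication of mitochondrial DNA showed 8 of 11 genes below 0 (median -0.35) and 0 calls. In that list Ssbp1, the single-stranded DNA-binding protein, had -1.40 (SE 0.51), Tfam, which packages the mitochondrial genome, -0.35 (SE 0.24), Tefm -0.71, Polg2 -0.59, Mterf1a -1.55 and Mterf1b -1.58 (both at no more than 1.61 CPM and at 0 in negative library 3), Polrmt -0.13 and Tfb2m 0.00. Polg, Top1mt and Twnk had 0.19, 0.23 and 0.24. Of the 8 regulators tested, 1 was called lower with the block, against 4.25% of all genes. It was Myc, a growth factor-responsive transcription factor. Its values were 278, 252 and 189 CPM in the negative and 488, 440 and 437 CPM in the positive libraries, without overlap (-0.94, SE 0.13, blocked limma-voom adjusted p = 0.00380; 0.0906 without the block). Gabpa, the DNA-binding ETS subunit of GABP, had 43.3, 46.3 and 35.0 CPM against 64.7, 58.2 and 68.1 CPM, also without overlap, and missed the threshold (-0.60, SE 0.16, adjusted p = 0.0530 with the block). Gabpb1 had -0.33, Nrf1 0.27, Yy1 0.38, Esrra 0.56, Pprc1 0.19 and Ppargc1b 0.49, and Ppargc1a failed the filter with at most 0.371 CPM. The median of the 8 tested regulators was 0.23.

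The mitochondrial genome's own products gave 2 different pictures. The 13 mitochondrially encoded mRNAs had a median log2 fold change of 0.00, with 6 below 0 and 0 called. The mitochondrial ribosomal RNAs, mt-Rnr1 and mt-Rnr2, chosen after their values were seen, summed to 1924, 1044 and 2556 CPM in the negative and 3607, 1608 and 3111 CPM in the positive libraries. That is a difference of -46.7%, -35.1% and -17.8% by tumor. Both were called with the block (limma-voom adjusted p = 0.0443 for mt-Rnr1 and 0.0337 for mt-Rnr2) and not without it (0.481 and 0.514). The labels give the molecule as polyA RNA, which limits what these levels can say. Of 79 nuclear subunits of oxidative phosphorylation, 55 were below 0 (median -0.15). With the block 2 were called lower, Cox6b1 (-0.59) and Atp5k (-0.70), and 2 higher, Cox6b2 (1.90) and Ndufa6 (0.97). These shares of the 79 were below the 4.25% and 4.32% of all genes called lower and higher.

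Protein genes of the cytosolic ribosome, which translates the nuclear mRNAs, also lay lower in CD34 negative CAFs. Of 80 cytosolic ribosomal protein genes tested, 74 were below 0 (median -0.46). With the block 30 were called lower and 0 higher, against 4.25% and 4.32% of all genes tested. Without the block 0 were called in either direction, against 0.121% of all genes. Their summed level was 9601 to 10625 CPM in the negative and 12571 to 14177 CPM in the positive libraries, without overlap, a difference of -23.6%, -25.1% and -25.6% by tumor. Rps23 (-1.23), Rps6 (-1.19), Rps24 (-0.94) and Rpl5 (-0.92) had the smallest adjusted p with the block. With the block, the median SE was 0.14 for the cytosolic and 0.25 for the mitochondrial list, so their numbers of calls are not on equal terms. Members of the mitochondrial and the cytosolic list come from the same libraries, and whether one list differed from the other was not tested.

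**Figure D5:**
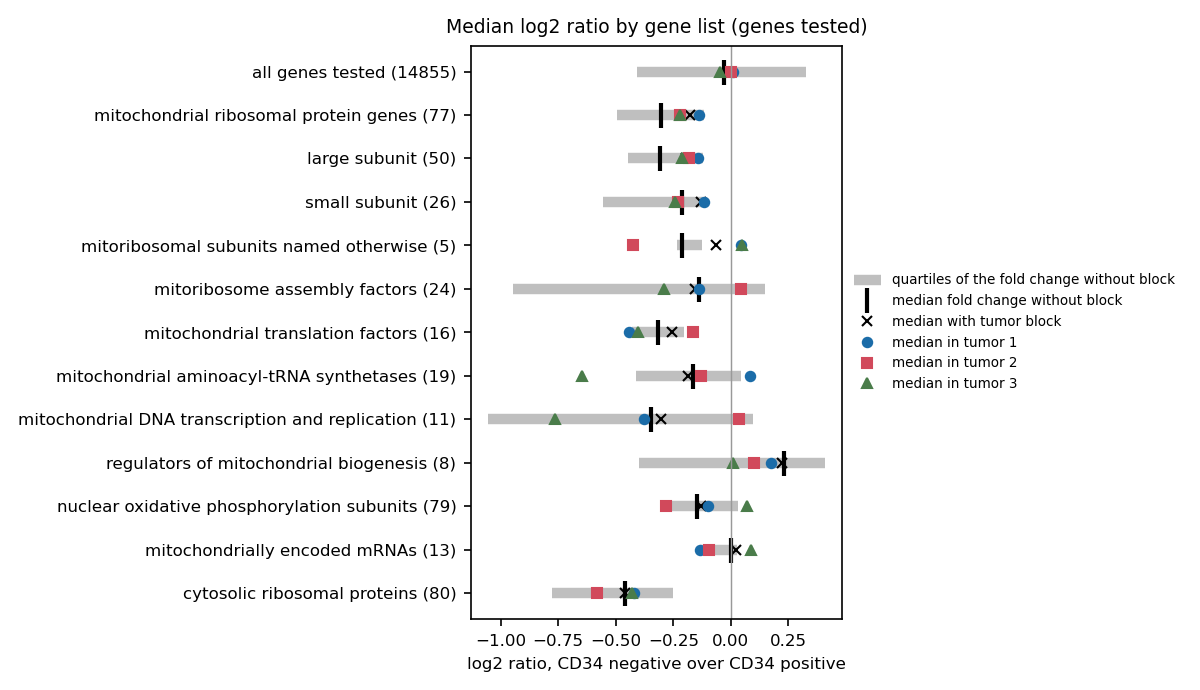
Median log2 ratio, CD34 negative over CD34 positive, of each gene list: grey bars are the quartiles and black bars the median of the fit without a block, crosses the median with the tumor as a block, and coloured symbols the medians within each tumor; numbers of genes tested are in parentheses. The Mrp median is -0.31 (-0.18 with the block), that of the cytosolic ribosomal proteins -0.46 and that of the mitochondrially encoded mRNAs 0.00.

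Some member counts are uncertain because of their neighbours. Another annotated gene overlaps 25 of the 78 members, and the use of strand in the counting was not stated. Overlaps are between whole gene spans, introns included, and need not lie in counted sequence. Mrps25 and Nr2c2, for example, overlap over 3547 bases, with 4160 and 6056 counts summed over the libraries. Mrps18a, with a counted length of 864 bases, and Rsph9 overlap over 6871 bases of span, with 3454 and 501 counts. A search with the longest annotated transcript of each member found a stretch of at least 100 bases with at least 95% identity to another gene for 42 members. The stretch covered more than 50% of that transcript for 7 (Mrpl22, Mrpl27, Mrpl53, Mrps18b, Mrps21, Mrps25 and Mrps34). That transcript can be much longer than the counted length. Mrpl32, for example, matched Gm6578 over 760 bases of a transcript of 3013, with a counted length of 768. Mrps5 matched Gm13328 over 1019 bases (counted length 1434) and Mrps16 matched Gm9173 over 402 (counted length 566). How reads with several matches were counted was not stated. Mrpl33 and Mrpl23 are not among the 7, but their searched transcripts had 2741 and 3715 bases against counted lengths of 466 and 582. Mrpl33 matched Gm43809 over 109 bases, and Mrpl23 matched Mrpl23-ps1, among other genes, over 124, both at 100% identity. Whether these stretches lie in counted sequence was not tested.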

How the data were processed

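The authors aligned the reads to the mouse genome (GRCm38/mm10) and counted them per gene with Rsubread (featureCounts). The deposited values are raw read counts for 3 CD34 negative and 3 CD34 positive libraries (total RNA, polyA-selected TruSeq libraries, NextSeq 500). Strand use and the handling of multiple matches are not given in the sources used here. From these counts, genes passing filterByExpr (minimum count 10) were scaled by TMM and fitted with limma-voom without a block, after the study's methods. Benjamini-Hochberg adjustment was over all genes tested, with a threshold of 0.05, and a positive log2 fold change means higher in CD34 negative CAFs. Rows without a symbol were kept in the fit. The tumor as a block was an alternative. The pairing rests on both fractions coming from the same tumor. The deviations of paired libraries had correlations of 0.373, 0.350 and 0.219 over all genes, and weaker ones of 0.292, 0.141 and 0.129 over the members. The fits used limma 3.58.1, with DESeq2 1.42.0 and edgeR 4.0.16 as alternatives, in R 4.3.3, and were tested on simulated data. Members named are those called in either fit, the 6 per direction with the largest differences (mean log2 CPM of at least 3, 1 sign in all 3 tumors), the 4 highest and 4 lowest per length, those failing the filter and 9 fixed ones. Of other lists, called genes (at most 4) and all genes of lists of at most 11 were eligible. The members and lists were chosen with earlier results of these data known.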

Additional observations from a re-analysis of the deposited data

How the results depend on the processing

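The median log2 fold change of the members (-0.31), of the large subunit (-0.31) and of the small subunit (-0.21) stayed below 0 under every alternative run, but its size moved. In this order it was -0.15, -0.20 and -0.088 with edgeR, -0.16, -0.21 and -0.10 with DESeq2, -0.17, -0.21 and -0.091 with limma-trend, and -0.20, -0.21 and -0.099 with counts thinned to the smallest library. Sample quality weights gave -0.19 for the members and for the large subunit. Removing a length trend gave -0.21 and -0.22 for them, and removing a GC trend, chosen after seeing the data, -0.35 for the small subunit. Leaving out 1 library or tumor gave -0.41 to -0.085 for the members, -0.45 to -0.071 for the large subunit and -0.35 to -0.11 for the small subunit, the value nearest 0 being that without positive library 2 in each. The mean log2 ratio of the summed members over the tumors was -0.24 by library totals and -0.22 with TMM.

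With the tumor as replicate block the medians were -0.18, -0.19 and -0.13. The blocked edgeR fit gave -0.17, -0.20 and -0.091, the blocked DESeq2 fit -0.18, -0.21 and -0.10, and the block with the length trend removed -0.12, -0.12 and -0.088. The block with the GC trend removed gave -0.18 for the members and -0.16 for the large subunit. Members called lower numbered 0 without the block, where 0.121% of all genes were called in either direction. In blocked fits, with the share of all genes called lower in parentheses, they numbered 2 with limma-voom (4.25%) and 2 with DESeq2 (6.02%). They numbered 1 (Mrpl23) with the GC trend removed (3.56%), 0 with edgeR (2.11%) and 0 with the length trend removed (3.96%). With a tumor left out they numbered 0 to 3 (2.92% to 7.32%). The counts of the blocked fits were near or below these shares.

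Some members changed sign, all with values between -0.41 and 0.21 in the fit without a block, and none of these passed a test in any fit run. Mrpl1 (-0.03) was 0.085 with edgeR, 0.069 with DESeq2, 0.083 with limma-trend, 0.048 with thinned counts, 0.076 with the block, 0.083 with blocked edgeR, 0.072 with blocked DESeq2, 0.031 with the block and length trend removed, 0.11 with the GC trend removed and 0.21 with the block as well. Mrpl41 (-0.11) was 0.19 with edgeR, 0.17 with DESeq2, 0.22 with limma-trend, 0.20 with thinned counts, 0.060 with the block, 0.21 with blocked edgeR, 0.20 with blocked DESeq2, 0.047 with the block and length trend removed and 0.012 with the block and GC trend removed. Mrpl12 was 0.14 with quality weights. Mrpl52 was 0.18 with the length trend removed and 0.22 with the block as well. Mrps30 was 0.0027 with the GC trend removed and 0.024 with the block as well. Mrps18b was 0.044 with thinned counts. Without 1 library, Mrpl1 ran from -0.10 to 0.14, Mrpl12 ran from -0.62 to 0.13, Mrpl19 ran from -0.60 to 0.026, Mrpl41 ran from -0.27 to 0.43, Mrpl44 ran from -0.66 to 0.13, Mrpl52 ran from -0.25 to 0.012, Mrps18b ran from -0.58 to 0.25 and Mrps25 ran from -0.48 to 0.062. Without 1 tumor, Mrpl1 ran from -0.09 to 0.10, Mrpl10 ran from -0.028 to 0.39, Mrpl41 ran from -0.39 to 0.37, Mrpl44 ran from -0.82 to 0.13, Mrpl58 ran from -0.53 to 0.0068 and Mrps18b ran from -0.64 to 0.13. Without 1 tumor, in the blocked fit, Mrpl1 ran from 0.024 to 0.11, Mrpl12 ran from -0.27 to 0.058, Mrpl41 ran from -0.23 to 0.61, Mrpl44 ran from -0.39 to 0.0032 and Mrps18b ran from -0.44 to 0.34. In the blocked fit without tumor 1, Mrpl41 was 0.035, and without 1 library Mrpl10 reached 0.42. The cause of these shifts was not tested.

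Of the members' values, those of the shallowest library, positive library 1, rest on a median count of 183, and 3 tumors limit every test.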
